A study of Mus musculus with 9 samples.

Results

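The longest windows of a genome-wide GpC methylation table were examined, namely those spanning 8000 bp or more on chromosomes 1 to 19 with a value in all 9 libraries. There were 6432 such long windows among 786533 autosomal windows with complete values, and 833294 windows in the whole table. They made up 0.818% of the autosomal windows and 3.40% of their bases, 80.9 Mb of 2379 Mb. They were described beside 240087 reference windows of 2500 to 3100 bp, the range that holds the median of all autosomal windows, 2783 bp.

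The values came from NOMe-seq (nucleosome occupancy and methylome sequencing), which treats fixed cells with a GpC methyltransferase and reads its marks by bisulfite sequencing, so that a higher percentage stands for DNA less covered by nucleosomes. The cells were female F1 mouse embryonic stem cells (mESCs) from FVB/NJ dams and CAST/EiJ sires, grown in 2i and then differentiated in DME HiHi medium. Undifferentiated cells were collected at day 0. Cells given a non-silencing hairpin (Nons) or a hairpin against Smarcc1, a subunit of the BAF nucleosome remodelling complex, at day 2, with puromycin at day 3, were collected at days 4, 5, 6 and 7. Each condition and day was 1 library, and the knockdown rested on 1 hairpin, labelled Smarcc16. RNA was not part of these files, so neither the Smarcc1 level nor markers of cell identity could be checked. Read counts per window were not used here and the depth of each library is unknown. With 1 library per group there are no replicates, so levels are given with the standard deviation (SD) of the same measure over the 19 autosomes, which describes spread along the genome and not between cultures.

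The table was built from consecutive windows with a set number of sequenced GpC positions, 200 by the name of the deposited table. The study's methods speak of a smaller number and of a normalisation in Seqmonk, and neither could be checked on the deposited values. A window of this kind grows long where few positions were read. Short reads cannot be placed where the same sequence occurs at many sites, and the mouse genome holds many such sites, among them interspersed retrotransposons such as LINE-1 and IAP elements, and tandem arrays of duplicated genes. Mouse pheromone receptors, major urinary proteins, defensins and KRAB zinc-finger genes are textbook cases of gene arrays that grew by duplication.

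The sequence of the long windows was set beside that of the reference windows in GRCm38, the assembly of mm10. The number of copies of a 75-base stretch, the length of the reads, was counted on both strands of the 21 assembled nuclear chromosomes. The reads were paired and were mapped to a bisulfite-converted genome. Copies in the unconverted genome therefore do not tell exactly which reads could be placed. Stretches from named windows and from reference windows beside them are printed here because they show the kinds of sequence that long windows hold. All are from the plus strand, 5′ to 3′, and capitals mark GpC dinucleotides, the sites that the methyltransferase can mark. The first is the sampled 75-base stretch present in the most long windows, here from an intergenic site at chr1:4564397-4564471, which had 8270 copies in the genome. The next is 150 bases from a further long window of the high-copy kind, an intergenic site at chr6:79281676-79281825, whose central 75 bases had 2503 copies.
most shared stretch: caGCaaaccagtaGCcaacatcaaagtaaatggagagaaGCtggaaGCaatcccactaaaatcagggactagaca
chromosome 6 long window: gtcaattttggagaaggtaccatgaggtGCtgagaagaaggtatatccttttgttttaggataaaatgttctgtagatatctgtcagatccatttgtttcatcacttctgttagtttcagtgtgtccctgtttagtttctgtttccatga

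The following 3 show duplicated sequence with few copies. They are an intron of Gm16867 at chr14:69472138-69472287 with 2 copies of its central 75 bases, an intergenic site at chr7:9796044-9796193 in the window over Vmn2r46 and Vmn2r47 with 4 copies, and an intergenic site at chr12:23489087-23489236 with 3 copies.
Gm16867 window: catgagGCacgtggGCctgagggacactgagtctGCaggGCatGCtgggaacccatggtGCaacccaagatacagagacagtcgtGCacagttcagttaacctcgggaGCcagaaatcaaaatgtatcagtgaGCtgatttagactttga
Vmn2r window: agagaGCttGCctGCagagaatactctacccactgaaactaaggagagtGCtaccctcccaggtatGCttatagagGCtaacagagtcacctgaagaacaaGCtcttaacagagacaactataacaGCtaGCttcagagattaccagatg
chromosome 12 window: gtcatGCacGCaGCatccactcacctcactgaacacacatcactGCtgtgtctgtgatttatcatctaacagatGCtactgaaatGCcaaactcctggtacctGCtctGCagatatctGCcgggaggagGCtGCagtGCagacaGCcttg

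The central 75 bases of the last 3 each occurred in 1 copy. They are an intron of Skint3 at chr4:112279844-112279993 in a long window, and 2 stretches of reference windows, an intergenic site at chr6:79287747-79287896 beside the long window of chromosome 6 and an intron of Slc25a37 at chr14:69250163-69250312 beside the window over Gm16867.
Skint3 window: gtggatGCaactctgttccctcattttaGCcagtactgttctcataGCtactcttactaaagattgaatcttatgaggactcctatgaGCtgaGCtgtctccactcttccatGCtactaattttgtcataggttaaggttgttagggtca
reference, chromosome 6: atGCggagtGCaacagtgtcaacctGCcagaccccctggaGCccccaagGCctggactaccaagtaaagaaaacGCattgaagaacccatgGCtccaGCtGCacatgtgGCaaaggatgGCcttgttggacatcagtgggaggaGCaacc
reference, chromosome 14: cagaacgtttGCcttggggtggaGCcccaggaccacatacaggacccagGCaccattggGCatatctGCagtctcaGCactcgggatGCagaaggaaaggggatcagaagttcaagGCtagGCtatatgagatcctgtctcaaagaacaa

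The printed stretches differed in how many GpC dinucleotides they held. The 150 bases of the chromosome 6 long window had 1, and those of the reference window on chromosome 6 had 12. Those of the Gm16867 window and of the reference window beside it had 9 each, and those of the chromosome 12 long window had 13. Over all windows the difference was smaller than in the chromosome 6 pair. GpC cytosines outside GCG, the positions that NOMe-seq counts, had a median density of 68.9 per kb in long windows and 81.5 per kb in reference windows, and GC content was 41.4% and 42.4%.

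A long window, longer by the rule, held a median of 660 such cytosines and a reference window 224. Most of the sequence around them was repeated, since 25.9% of sampled stretches in long windows occurred once in the genome against 97.9% in reference windows. A median of 178 GpC cytosines, in 2550 bp, lay in the part of a long window that occurred once. Soft-masked (repeat-masked) bases made up a median of 79.4% of a long window and 24.1% of a reference window. A masked run of 5 kb or more was found in 4861 long windows (75.6%), which no reference window was long enough to hold. Masked runs were counted across short unmasked interruptions.

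Long windows were sorted into 4 kinds by their sequence, with limits chosen after it had been seen. In 4488 (69.8%, 42.0 Mb) stretches with 100 or more copies prevailed over those with 2 to 99. In 1480 (23.0%, 26.1 Mb) stretches with 2 to 99 copies prevailed. In 361 (5.61%, 4.63 Mb) at least 50% of stretches occurred once, and 103 (1.60%, 8.16 Mb) spanned at least 1000 unknown (N) bases of the assembly, with a median of 50000.

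**Figure D1:**
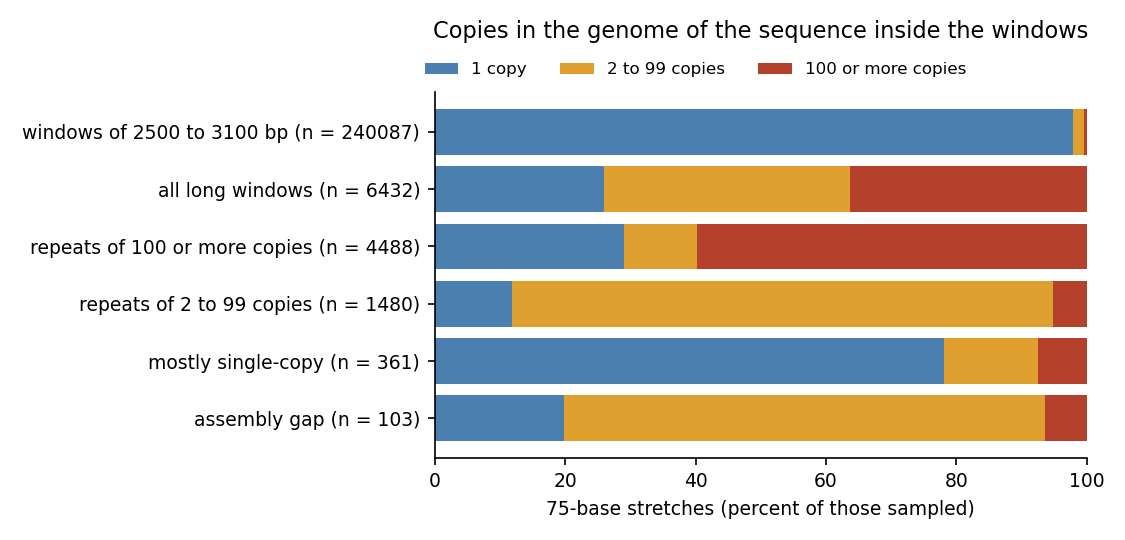
Share of sampled 75-base stretches (x axis, percent) with 1 copy, 2 to 99 copies and 100 or more copies in the genome, in reference windows, in all long windows and in the 4 kinds of long window (n in brackets). Stretches with 1 copy filled 97.9% of the reference bar and 25.9% of the bar of all long windows.

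The high-copy windows had much sequence in common. Their median length was 9128 bp and the longest masked run in them had a median of 6677 bp. Repeated stretches in them had a median of 2147 copies. The 75 bases printed first were found in 3181 of these 4488 windows (70.9%), in 3364 of all 6432 long windows (52.3%) and in 7 of 240087 reference windows. Of 7086 autosomal copies, 3481 (49.1%) lay wholly inside long windows. The longest run of codons without a stop, in any of 6 frames, had a median of 1276 codons in high-copy windows, and reached 1000 codons or more in 3073 (68.5%). It reached that length in 7.78% of the windows with 2 to 99 copies and in 5.56% of the mostly single-copy windows. Full-length LINE-1 elements are known to carry a long open reading frame for a reverse transcriptase. No repeat annotation was used here, and the runs were given no family name.

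Windows with 2 to 99 copies were longer and more varied. Their median length was 11581 bp and the longest 436519 bp, and the repeated stretches in them had a median of 4 copies. A median of 129 GpC cytosines lay in their single-copy part, against 181 in high-copy windows. Mostly single-copy windows stood apart, with a median of 462 GpC cytosines in sequence that occurs once, more than the 224 of a whole reference window.

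**Figure D2:**
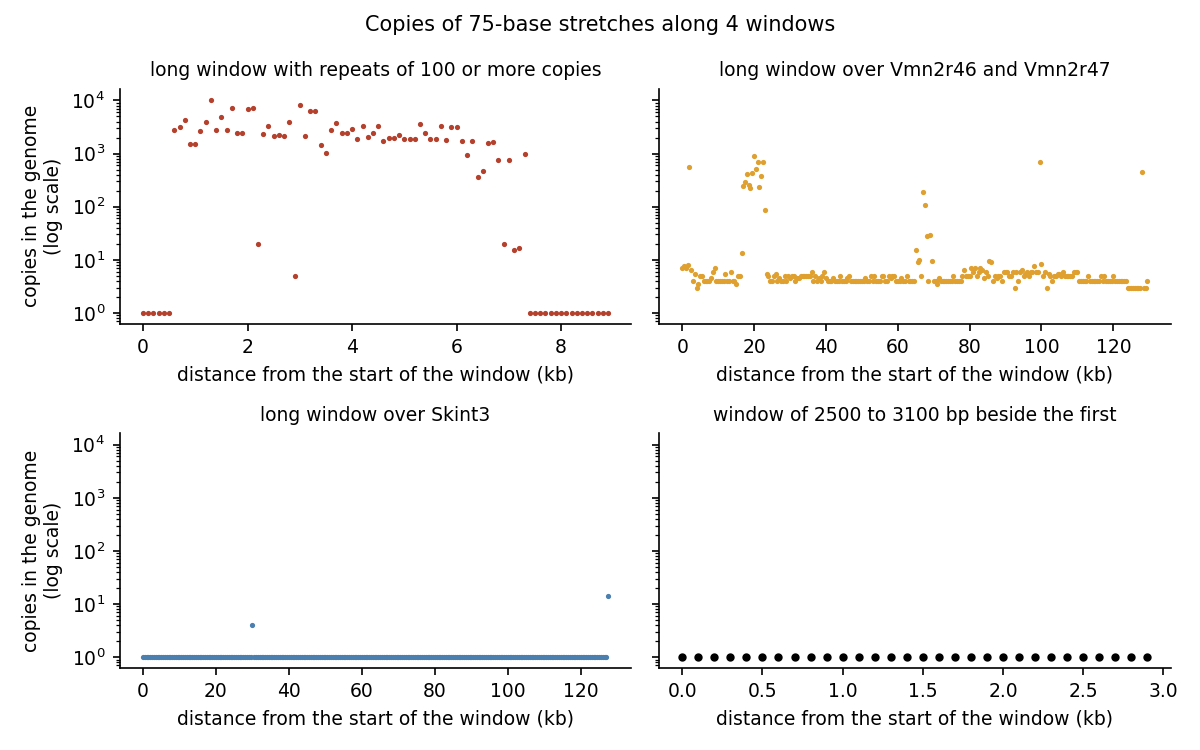
Copies in the genome of 75-base stretches (y axis, log scale) against the distance from the start of the window (x axis, kb) in 4 windows. Points are medians over 100 bp in the windows under 20 kb and over 500 bp in the other two. The high-copy window of chromosome 6 (9053 bp) held a block of repeats between flanks with 1 copy, the Vmn2r window (129840 bp) lay mostly at a few copies with blocks that reached 885, and the Skint3 window (127680 bp) lay at 1 copy like the reference window.

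Sequence was shared widely among the members. Of the long windows, 6177 (96.0%) held a sampled stretch that another long window also held, and 4349 (67.6%) shared one with 50 or more others. Long windows are therefore not independent of each other in sequence. Stretches were sampled every 25 bp, so these counts are lower bounds.

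The kinds were placed differently along the chromosomes. High-copy windows were spread, with at least 1 in 74.3% of the 2413 bins of 1 Mb and 2.99% of them next to another of their kind. Windows with 2 to 99 copies were clustered, in 15.2% of bins, with 64.8% of them next to another and up to 24 in a row. Of the low-copy windows 16.96% (251) lay within 5 Mb of the first window of their chromosome, the centromere-proximal end in mouse. The share was 3.76% of reference windows and 3.72% of high-copy windows. Chromosome 14 weighed heavily in the low-copy share. Its bins chr14:3000001-4000000, chr14:4000001-5000000 and chr14:6000001-7000000 held 32, 45 and 48 low-copy windows.

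Chromosome 14 held the most long windows, 615, in 7.76% of its bases. Chromosome 7 followed with 576 (6.74%) and chromosome 4 with 505 (5.59%). Chromosome 11 had the smallest share, 1.69% of bases in 182 windows, and chromosome 19 the fewest windows, 95. The share in high-copy windows lay between 1.18% of bases on chromosome 11 and 2.09% on chromosome 3. The share in low-copy windows ran from 0.115% on chromosome 15 to 4.95% on chromosome 14, so the chromosomes differed mainly in duplicated sequence of few copies.

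**Figure D3:**
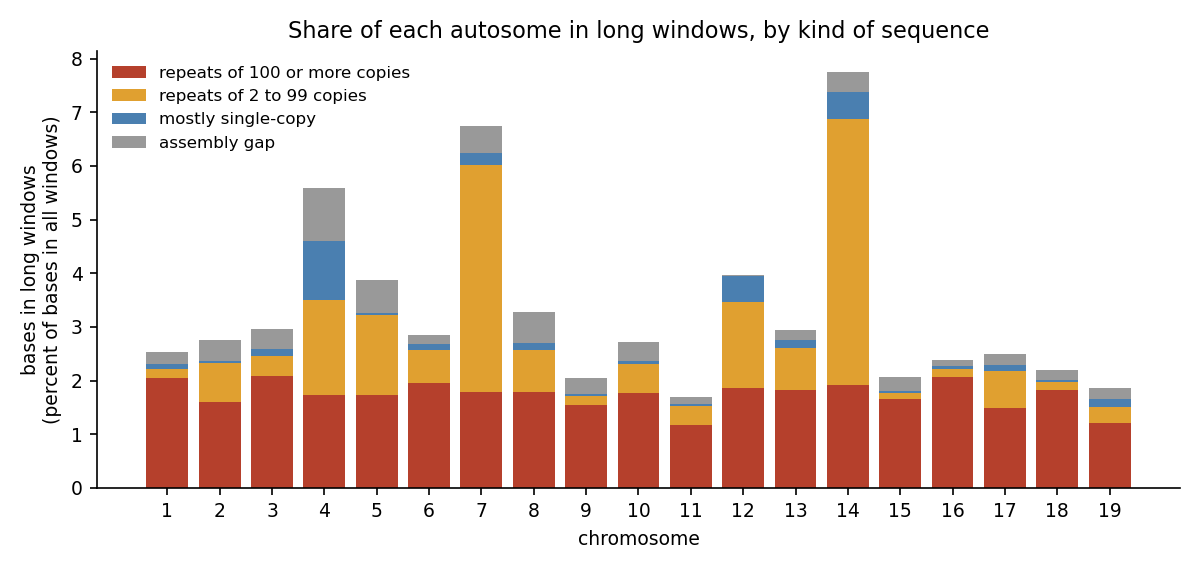
Bases in long windows as a percentage of the bases in all complete windows of each autosome (y axis), stacked by kind of sequence. Chromosomes 14, 7 and 4 stand above the others, at 7.76%, 6.74% and 5.59%, and the low-copy part makes up 4.95% of bases on chromosome 14 and 4.24% on chromosome 7.

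The densest megabase was chr14:3000001-4000000, with 925 kb in 33 long windows. It was followed by chr7:21000001-22000000, with 787 kb and 16 Vmn1r genes, chr14:42000001-43000000 with 783 kb, and chr4:60000001-61000000 with 777 kb and 9 Mup genes. In these 4 bins low-copy windows prevailed. The next 2 bins, chr4:112000001-113000000 and chr4:113000001-114000000, held 741 and 735 kb around the Skint genes, where only 1 of the 62 windows was of the low-copy kind.

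Genes filled less of the long windows than of the reference windows. Protein-coding genes of GENCODE M21 covered 23.6% of bases in long windows and 47.0% in reference windows, and their exons 1.14% and 3.68%. Pseudogenes covered 3.30% and 0.869%. Start sites of protein-coding genes lay in 336 long windows, or 4.15 such windows per Mb, against 6.23 per Mb of reference window. A window with several start sites counted once, and N bases, 8.54% of long-window bases, counted as length. These values are therefore not densities of start sites. The kinds differed here too, with 0.929 per Mb in high-copy windows and 10.2 per Mb in low-copy windows.

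Of 20807 autosomal protein-coding genes 1437 (6.91%) overlapped a long window, 453 (2.18%) had 50% or more of their span inside, and 268 lay wholly inside. Of those 268, 81 belonged to one of the clustered families listed for this work and 155 had only a provisional Gm or Rik symbol. A gene of the 41 families, by the start of its symbol, was overlapped by 330 long windows (5.13%) and by 1.46% of reference windows. Overlap is likelier in a longer window. By bases, genes of the families covered 3.68% of long windows and 1.21% of reference windows. That share was 1.10% in high-copy, 5.28% in low-copy and 23.3% in mostly single-copy windows, and 0.716% over assembly gaps. The families with most long windows were Skint (53), Zfp (48), Vmn2r (47), Olfr (36), Vmn1r (29) and Def (15).

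The families differed in how many of their genes had 50% or more of their span inside. Of the amylase genes (Amy) 4 of 6 did, of the Skint genes 6 of 11, and of the major urinary protein genes (Mup), which carry pheromones in urine, 11 of 22. The oocyte homeobox genes (Obox) followed with 2 of 7, the defensins (Def), which encode antimicrobial peptides, with 17 of 64, and the T cell receptor segments (Tr) with 46 of 187. Among pheromone receptors of the vomeronasal organ 34 of 208 Vmn1r and 17 of 121 Vmn2r genes did. The counts were 16 of 416 for zinc-finger genes (Zfp, 3.85%), 11 of 1128 for olfactory receptors (Olfr, 0.975%) and 0 of 113 for keratins (Krt), beside 2.18% of all protein-coding genes. Of the 36 Olfr windows 29 were of the high-copy kind, while 39 of 47 Vmn2r windows, 26 of 29 Vmn1r windows and all 15 Def windows were of the low-copy kind.

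**Figure D4:**
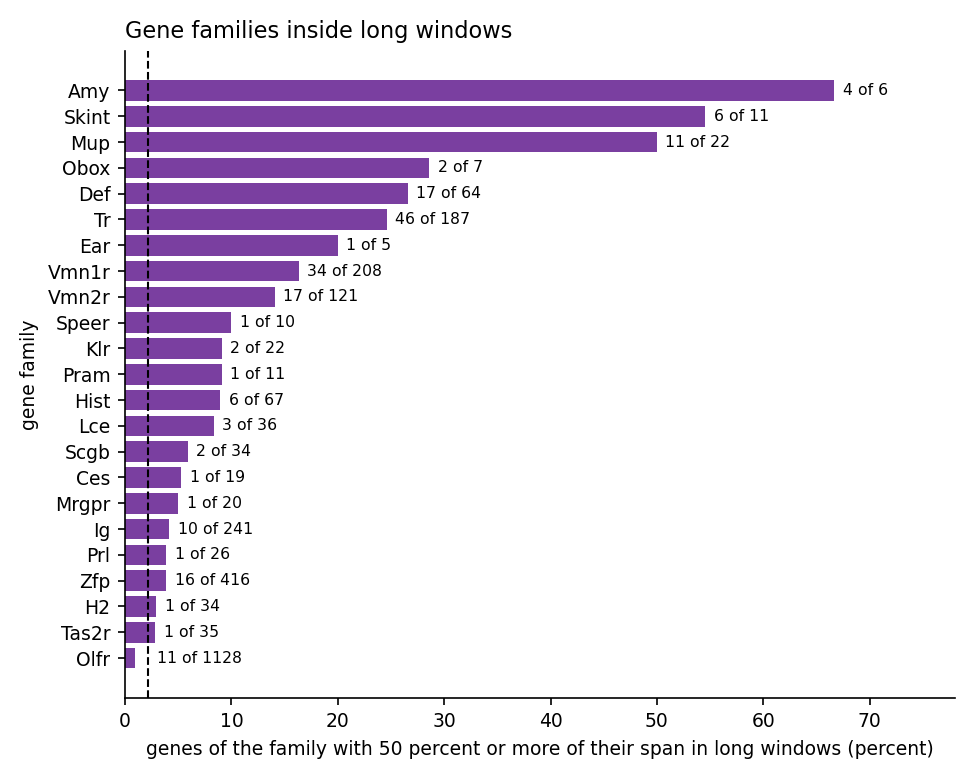
Genes with 50 percent or more of their span in long windows, as a percentage of the autosomal genes of the family (x axis), for the families with 5 or more genes and at least 1 such gene. Counts stand beside the bars and the dashed line marks all protein-coding genes (2.18%). Amy, Skint and Mup reach 50% or more and Olfr lies under the line, at 0.975%.

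The 20 protein-coding genes with most bases inside long windows fell into 4 sets. Skint genes encode immunoglobulin-like proteins of thymus and skin. Skint6 had 436 kb (90.5% of the gene) in 17 windows, Skint5 had 327 kb (62.7%) in 23, and Skint4 had 96.1 kb in 2. Genes in low-copy duplications were Gm3383 (180 kb in 3 windows), Gm3005 (166 kb in 2), Cphx3 (153 kb in 1), a homeobox gene, Gm3002 (142 kb in 8), Gm16867 (140 kb in 1), Gm2163 (123 kb in 2), Obox1 (85.9 kb in 6) and Zfp697 (92.1 kb in 3), with Gm20388 (109 kb, 2.46% of that gene). The third set had 1 long window each over an assembly gap, namely Dock2 (144 kb), Myo3a (120 kb), a myosin of the inner ear, Intu (103.0 kb), a planar polarity protein, Tmem267 (103.0 kb), Maml2 (93.6 kb), a Notch coactivator, and Sgms2 (92.9 kb), a sphingomyelin synthase. Cntnap2, a neuronal adhesion protein, and Galntl6, which is related to enzymes of protein glycosylation, formed the last set. Of their long windows 9 of 10 and 7 of 8 were of the high-copy kind, and all their long windows filled 5.65% and 7.16% of these genes.

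Of the 53 long windows over Skint genes 51 were mostly single-copy. Windows of neither repeated kind were found in other families too, since of 11 windows over immunoglobulin segments (Ig) 0 were low-copy and 2 high-copy. Over all 53 Skint windows, 89.5% of stretches occurred once. They covered 1239 kb with a median of 833 GpC cytosines in sequence that occurs once. Copies were counted in the reference genome, and the FVB/NJ and CAST/EiJ genomes were not analysed here. The 2 Mb of chromosome 4 around these genes held 59 (16.3%) of the 361 mostly single-copy long windows. The window over Skint3, chr4:112216080-112343759, had 7074 such cytosines. The median levels of the Skint windows were 8.89% on day 0, then 12.7, 20.4, 10 and 5.13% under the non-silencing hairpin and 8.57, 23.4, 10 and 5.26% under the Smarcc1 hairpin.

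The levels of the long windows over a family lay on either side of those of the reference windows over it. The mean over the 9 libraries had a median of 11.0% in the 13 long windows over Mup genes and 13.8% in the 10 reference windows, and for Def genes 11.6% and 12.7%. For Vmn1r genes the medians were 13.1% and 11.7%, for Olfr genes 12.8% and 11.9%, and for zinc-finger genes 13.6% in both.

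Levels were close to those of the reference windows in every library. The median long window had 10.8% GpC methylation on day 0, followed by 14.0, 21.02, 10 and 5.88% through the Nons series, days 4 to 7. The medians of reference windows were 11.3, 13.9, 21.2, 10.3 and 6.45% in the same order. Through the knockdown series the median long window had 11.0, 20.2, 11.3 and 6.49%, and the median reference window 11.1, 20.2, 11.9 and 7.22%. Long windows were lower in 8 of 9 libraries, all but Nons day 4. The difference per library ran from 0.139 percentage points higher (SD over autosomes 0.387) in Nons day 4 to −0.729 (SD 0.321) in knockdown day 7. At day 7 long windows were lower on all 19 autosomes in Nons and in the knockdown. Other libraries were less uniform. Long windows were lower on 17 autosomes on day 0, and on 7, 9 and 15 in Nons days 4 to 6. In knockdown days 4 to 6 they were lower on 8, 8 and 18.

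Averaged over the 9 libraries the medians differed by −0.315 percentage points (SD over autosomes 0.277). The average was lower in long windows on 16 of 19 autosomes, lowest on chromosome 14 (−0.913) and highest on chromosome 17 (0.169). No test was made between 2 sets of windows, since neighbours share libraries and sequence. The value depended on which reference windows were taken. Measured against reference windows within 1 Mb of each, which 6417 long windows had, it was −0.0405, and in 4 of 9 libraries long windows were then the higher.

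**Figure D5:**
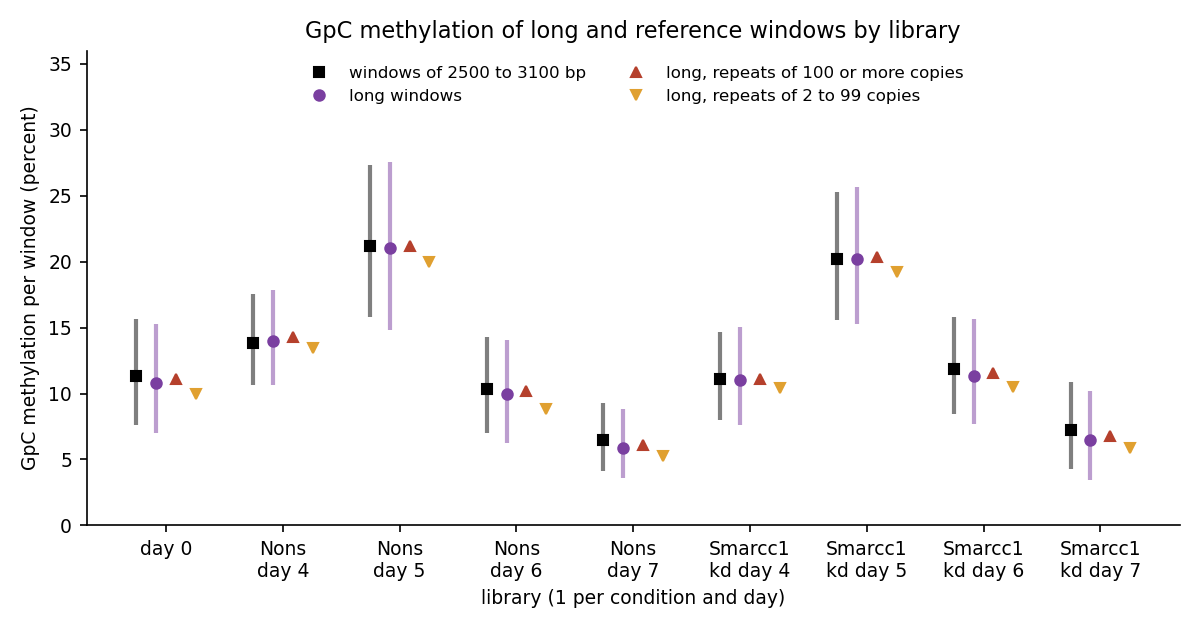
GpC methylation per window (y axis, percent) in each of the 9 libraries (x axis). Symbols are medians over windows and vertical bars the range from the 25th to the 75th percentile, drawn for reference and all long windows. Long windows follow the reference windows across libraries, with medians from 5.88% to 21.02%, and low-copy long windows lie under both in all 9 libraries.

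The kinds of long window differed in level. High-copy windows differed from the reference by −0.0992 percentage points on average and were lower in 5 of 9 libraries. Low-copy windows differed by −1.11 and were lower in all 9, with medians of 10% on day 0, followed by 13.4, 20, 8.82 and 5.26% through the Nons series and by 10.4, 19.2, 10.5 and 5.84% through the knockdown series. Against reference windows within 1 Mb the low-copy difference was −0.530, lower in 8 of 9 libraries. Mostly single-copy windows differed by −0.581, and by −0.00305 from their neighbours, and windows over assembly gaps by 0.236.

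Among high-copy windows, those with the 75-base stretch printed first had a higher median than those without it in all 9 libraries, by 0.104 to 1.62 percentage points. Their means over the 9 libraries had medians of 13.1% and 12.7%.

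Values of exactly 0 were more frequent in long windows. They made up 10.7% of long windows in knockdown day 7 and 4.50% of reference windows, 6.02% and 1.92% in Nons day 7, and 0.218% and 0.0171% in Nons day 4. In low-copy windows the share reached 18.4% in knockdown day 7 and 13.3% in Nons day 7. Zeros moved with the lower medians, and without windows at 0 or 100% the mean difference from the reference was −0.183. Their part in the difference was not otherwise tested.

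Reference windows with a start site of a protein-coding gene were higher than those without, and long windows with one were not. The mean over the 9 libraries had a median of 12.2% in 336 long windows with a start site and 12.8% in 6096 without. In reference windows the medians were 16.96% (n = 4158) and 13.0% (n = 235929). Where no gene of the clustered families overlapped, the median was 12.1% in 213 long and 17.6% in 3581 reference windows with a start site. Where one did, it was 12.4% (n = 123) and 13.5% (n = 577). The 22 high-copy windows with a start site and no family gene had 16.1%, and the 168 low-copy ones 11.8%. A start site takes up less of a longer window, and the part of length in these values was not tested.

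Level changed little with length above the threshold. Windows of 7750 to 7999 bp, just under it, had a median mean of 12.4% (n = 571) and those of 8000 to 8249 bp, just over it, 12.7% (n = 597). From 2500 to 3100 bp the median was 13.0%, from 9000 to 9999 bp 13.0%, from 15000 to 19999 bp 12.2% and from 30000 bp up 12.5% (n = 252). Single windows agreed little between libraries. Over long windows the correlation of 2 libraries had a median Pearson's r of 0.0577 over 36 pairs (range 0.0142 to 0.130), and over reference windows 0.0984, both given as descriptions because windows share libraries and depth.

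The longest windows, ranked by their known bases, held duplicated genes. The first, chr14:69253954-69690472, spanned 436519 bp with 0.195% of its stretches occurring once and 91 GpC cytosines in them. It held the start sites of Entpd4 and Entpd4b, nucleotide phosphatases of the Golgi and lysosome, Slc25a37, a mitochondrial iron carrier, Loxl2, a lysyl oxidase, Synb, a syncytin of placenta, Gm16867 and Gm27179. Its values were 18.4% on day 0, then 4.35, 27.3, 20.9 and 0% under the non-silencing hairpin and 37.9, 12.2, 16.7 and 4.00% under the Smarcc1 hairpin. The values were neither high nor low as a whole, with a mean of 15.7% against 12.7% in the 216 reference windows within 1 Mb.

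The next, chr14:25996963-26294310, held the homeobox genes Cphx2, Cphx3, Duxbl2 and Duxbl3, with Plac9b, Tmem254b, Tmem254c and Gm9780, and had 140 GpC cytosines in sequence that occurs once. Its values were 9.84% on day 0, followed by 8.54, 25.4, 4.55 and 10.4% through the Nons series and by 21.5, 32.1, 0 and 15.9% through the knockdown series. The window at chr7:21442756-21670054, the longest over Vmn1r genes, held Vmn1r130, Vmn1r131 and Vmn1r132 beside 50000 N bases. It had 23.0% on day 0, then 21.5, 18.8, 11.3 and 9.76% under the non-silencing hairpin and 9.43, 10.2, 18.9 and 1.64% under the Smarcc1 hairpin. The SD over the 9 libraries was 10.4 percentage points in the Cphx3 window and 7.04 in the Vmn1r window, where reference windows had a median of 7.20.

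The window at chr4:42103969-42269045 held Ccl21b, a chemokine that guides lymphocytes, with Gm10600, Gm13304, Gm13305 and Gm13306. Its values were 30.4% on day 0, followed by 25.9, 32.9, 9.09 and 3.85% through the Nons series and by 7.69, 13.5, 10 and 0% through the knockdown series. The window at chr7:21942043-22102415 held Vmn1r137, Vmn1r138, Vmn1r139 and Gm6176 and 19 GpC cytosines in single-copy sequence. It had 0% on day 0, then 8.96, 5.88, 4.08 and 20% under the non-silencing hairpin and 19.3, 0, 26.3 and 8% under the Smarcc1 hairpin. In each of these 5 longest windows under 0.6% of stretches occurred once, so that little of their sequence was found at a single site.

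The longest windows over the other families had an SD over the 9 libraries from 4.85 (Vmn2r) to 11.4 percentage points (Skint3). The median of that SD was 7.63 over all long windows. The window at chr7:9731200-9861039 held Vmn2r46 and Vmn2r47 and had 0% on day 0, followed by 11.4, 11.8, 0 and 9.30% through the Nons series and by 3.85, 11.1, 3.45 and 9.09% through the knockdown series, a mean of 6.66% against 12.2% in 27 reference windows nearby. The Skint3 window had 25.7% on day 0, then 18.2, 37.9, 8.82 and 6.38% under the non-silencing hairpin and 12.8, 31.3, 17.4 and 5.26% under the Smarcc1 hairpin, a mean of 18.2% against 12.4% in 85 reference windows nearby. The window at chr2:176510515-176702257, with the zinc-finger genes Zfp967 and Zfp973 and with Gm14308, had a mean of 14.8%. The Olfr window, chr10:129967316-129986027 with Olfr247 and Gm10310, had 14.3% and the Def window, chr8:21487376-21544957 with the alpha-defensin genes Defa20 and Defa32, had 11.9%. Their neighbours had 13.0%, 12.8% and 12.6%. Of these windows the Vmn2r window lay furthest under its neighbours and the Skint3 window furthest above.

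The highest long window, chr8:72224470-72240212, was of the low-copy kind and held the start site of Ap1m1, a subunit of the AP-1 adaptor of vesicle transport. Its values were 66.7% on day 0, followed by 23.3, 44.4, 20.8 and 18.3% through the Nons series and by 44.8, 49.1, 7.14 and 23.3% through the knockdown series, a mean of 33.1% against 12.8% in 148 reference windows nearby. The next were 2 high-copy intergenic windows. That at chr6:79277225-79286277 had 23.9% on day 0, then 29.9, 45.5, 28.7 and 11.7% under the non-silencing hairpin and 28.6, 53.5, 24.3 and 10.7% under the Smarcc1 hairpin, above the reference median in all 9 libraries. That at chr8:45421112-45429375 had 34.7% on day 0, followed by 28.4, 31.3, 21.9 and 19.05% through the Nons series and by 18.7, 37.7, 39.7 and 17.9% through the knockdown series, and was also above it in all 9.

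The 3 lowest long windows were of the low-copy kind, as was the highest. The lowest, chr12:23483007-23495318, overlapped the pseudogene Gm9286 and had 0% on day 0, then 4.17, 11.1, 0 and 0% under the non-silencing hairpin and 2.99, 13.0, 0 and 1.72% under the Smarcc1 hairpin, a mean of 3.67% against 10.9% in 56 reference windows nearby. The window at chr7:22396813-22422890 over Vmn1r148 had a mean of 4.54% with a value above 0 in 4 of 9 libraries. The third, chr7:8830960-8877086, overlapped the pseudogene Vmn2r-ps43 and had a mean of 5.11%. These windows were picked as extremes of 6432, and their ranks are given as a description.

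The time course of long windows followed that of the reference windows. From day 0 to Nons day 4 the median change was 3.10 percentage points in long and 2.58 in reference windows, a difference of 0.513 (SD over autosomes 0.601). From day 0 to day 5 it was 9.83 and 9.64, to day 6 −1.004 and −0.926, and to day 7 −4.81 and −4.67. None of the 4 differences exceeded its SD over autosomes. That SD is the scatter of single autosomes and not the error of a median over all of them, so it cannot show equal changes.

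The comparison of knockdown with Nons asked whether long windows respond to loss of Smarcc1 otherwise than reference windows do. Knockdown minus Nons had medians of −2.97, −0.770, 1.37 and 0.416 percentage points in long windows, from day 4 to day 7. In reference windows it was −2.76, −1.02, 1.51 and 0.722. The long windows thus differed from the reference by −0.209 (SD over autosomes 0.819), 0.251 (SD 0.630), −0.140 (SD 0.529) and −0.305 (SD 0.343). The mean over the 4 days was −0.101 (SD 0.180), within the spread over autosomes. That spread is not an error of the mean, so whether the response differed was not tested.

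No long window passed limma, fitted to the 4 pairs of libraries of the same day, at an adjusted p (Benjamini-Hochberg) under 0.05 for a mean effect over the 4 days, and none did among all 829493 windows of the autosomes and X (0% called, with 0.995 as the lowest adjusted p). At an unadjusted p under 0.05, 154 long windows were higher in the knockdown (2.39%), where 1.58% of all windows were called, and 223 were lower (3.47%), where 2.65% were. Without day in the model the total of 377 became 77. Over all windows 13124 higher and 21997 lower calls then became 2103 and 3819. A sign shared by all 4 days was found in 292 long windows that were higher (4.54%) and 449 that were lower (6.98%). Of the 786533 autosomal windows 4.95% and 6.82% had one. The shares with a shared sign lay near the background.

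The windows with the largest shared changes were picked by this contrast, and their values are a description. The largest positive difference was at chr18:14730900-14739155, a high-copy window in Psma8, a proteasome subunit of testis. Under the non-silencing hairpin it had 18.5, 13.6, 4.21 and 4.23% at days 4 to 7 and under the Smarcc1 hairpin 43.6, 39.4, 9.71 and 18.8%, a mean difference of 17.7 percentage points (SD over days 9.65, n = 4 days). The next, chr14:44296846-44312323, overlapped the pseudogenes Gm8224 and Gm49109 and went from 8.16, 24.2, 9.76 and 2.86% to 14.3, 47.9, 29.5 and 17.6%. The third, chr17:17109297-17124865, held the start site of the zinc-finger gene Zfp97, going from 10.6, 12.8, 5.41 and 3.64% with Nons to 16.3, 52.0, 7.02 and 20%. Its mean difference was 15.7, and 7.91 without day 5.

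The largest negative difference was at chr4:60591011-60608152, over the pseudogene Mup-ps5. Nons had 10.5, 41.7, 25.5 and 46.7% and the knockdown 7.5, 10.7, 13.8 and 0%, a mean difference of −23.1 percentage points (SD over days 19.6, n = 4 days), and −15.2 without day 7. The intergenic high-copy window at chr16:20913198-20922408 went from 36.2, 46.5, 23.8 and 8.99% with Nons to 14.4, 14.7, 6.90 and 4.76%. The window at chr14:3051981-3065328, over the gene Gm2897, went from 27.6, 29.4, 33.3 and 12.2% to 11.1, 2.13, 12.1 and 4.17%. For each of these 6 windows limma gave an adjusted p of 0.995.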

How the data were processed

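Before deposit the authors used trim_galore for trimming, mapped the reads with Bismark on mm10 with FVB/NJ and CAST/EiJ variants masked, and called informative GpC positions with coverage2cytosine. Demultiplexing used bcl2fastq per the labels; versions are not given in the sources used here. The deposited values are percent GpC methylation per window with alleles merged, and were used as deposited. The study's methods name Enrichment normalisation in Seqmonk, and whether these values had been through it was not tested; no further scaling between libraries was applied. All 9 value columns matched a sample title, and 0 were left unmatched. Groups came from the titles.

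Members and lists were chosen with earlier results of these data known. Of 6630 long windows 198 (2.99%) lacked a value and were removed, against 0.420% of all autosomal windows. Sequence and genes came from GRCm38.p6 and GENCODE M21. The 75-base stretches were sampled every 25 bp in long and every 100 bp in reference windows, and repeated stretches were split at 100 copies. Windows named were the 5 longest by length without N bases, the 3 highest and 3 lowest by the mean over libraries, the longest of the 6 families with most windows, and the 3 largest rises and falls with 1 sign on all days. Genes named were the 20 with most bases inside and those starting in a named window. The knockdown was tested with limma 3.58.1 (R 4.3.3), with day as a block and Benjamini-Hochberg adjustment over 829493 windows. Copy counting and the fit were tested on simulated data. The differences simulated for the fit were larger than any mean difference named here, so whether smaller ones would be called was not tested. Further steps used Python 3.11.15.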

Additional observations from a re-analysis of the deposited data

Results flagged for a closer look

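The difference between knockdown and Nons, taken in long windows relative to reference windows, was below 0 at 3 days and above 0 at 1. From day 4 to day 7 it came to −0.209, 0.251, −0.140 and −0.305 percentage points. Each value comes from 1 library per arm and lies within its SD over autosomes. That SD is not an error of the value, and the difference between days was not tested.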

How the results depend on the processing

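The level of long minus reference windows (−0.315 percentage points) stayed below 0 under every alternative run, between −0.0405 with reference windows within 1 Mb and −0.505 with a minimum of 10000 bp, apart from −1.11 in low-copy windows only, an alternative chosen after seeing the data as were the high-copy windows (−0.0992) and single-copy reference windows (−0.349). Without each day it ran from −0.407 to −0.219. Of the values per library under alternatives 113 moved by less than the SD over autosomes and 13 by more. A change of sign was counted only where the main difference exceeded that SD, and 0 were found there. Elsewhere signs did change. Against reference windows within 1 Mb, Nons day 5 went from −0.155 to 0.355 and knockdown day 5 from −0.00971 to 0.346. In low-copy windows only, Nons day 4 went from 0.139 to −0.447. The knockdown difference (−0.101) became 0.0125 with means, within its spread. Long windows numbered 12899 from 6000 bp and 2166 from 10000 bp. Those overlapping a clustered family made up 4.25% and 10.2% at those limits. With 50% or more of the window inside the share was 2.63%, beside 1.19% of reference windows. Unadjusted limma calls fell from 377 to 77 without the day block and ran from 313 to 437 without each day. The split of higher and lower calls, 154 and 223, became 210 and 214 with quantile normalization and 230 and 146 without day 4. It was 107 and 273 without day 6 and 152 and 285 without day 7. Over all 829493 windows the split moved in the same directions. There it went from 13124 and 21997 to 20315 and 21142 with quantile normalization and to 20928 and 14315 without day 4. It was 9567 and 27244 without day 6 and 10776 and 27432 without day 7. No paired analysis was possible because each group has 1 library and the labels number no replicates, other than the day block above. Depth is unknown, which limits every value of a single window.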
